A study of Mus musculus with 12 samples.

Results

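The microRNAs miR-22 and miR-34a were followed here through the 2 mature arms of each hairpin, which makes 4 names (mmu-miR-22-3p, mmu-miR-22-5p, mmu-miR-34a-5p and mmu-miR-34a-3p, written below without the species prefix) of 1915 mouse microRNA names in the deposited count table. They were chosen for their known links to the bile acid receptor of the liver, by a rule that uses no value of this table. Earlier results of these data were known when they were chosen. Both arms of miR-22 passed the filter on low counts, along with 339 other names, while miR-34a-5p and miR-34a-3p did not.

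The libraries hold small RNA from extracellular vesicles, the membrane-bound particles that cells shed, precipitated with a polymer reagent from plasma taken 8 days after surgery on male C57BL/6J mice. In 6 libraries the mice had undergone bile duct ligation (BDL), which ties off the common bile duct so that bile backs up into the liver, and in 6 the mice had a sham operation. The sample labels give liver as the tissue but extracellular vesicles as the site, and the protocol describes plasma; no library was read here as liver tissue. The series' design text speaks of 6 animals per group, no age is given in the sources used here, and the sample labels do not tie a library to an animal. Each library began with 40 ng of RNA and was amplified by 15 cycles of PCR.

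The farnesoid X receptor (FXR) is the nuclear receptor that senses bile acids in hepatocytes and, partly through the small heterodimer partner (SHP), turns down their synthesis. In liver, bile acids acting through FXR have been reported to raise miR-22, which targets the cell cycle gene cyclin A2. FXR and SHP have been reported to hold down miR-34a, a classic target of the tumour suppressor p53. Both microRNAs have been reported to target Sirt1, a deacetylase that acts on FXR and p53. A hairpin gives up 1 arm from each side of its stem, and usually 1 of the arms is kept as the working guide strand.

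The mature sequences, from RefSeq on GRCm38.p6, show what each name counts, with the seed (bases 2 to 8, the stretch that pairs with targets) in capitals, written 5′ to 3′:
miR-22-3p: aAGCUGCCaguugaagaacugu
miR-22-5p: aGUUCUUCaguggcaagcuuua
miR-34a-5p: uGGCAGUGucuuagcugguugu
miR-34a-3p: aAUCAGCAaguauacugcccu

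Among the mature mouse sequences of that table, 0 other names carry the seed of miR-22-3p, 0 that of miR-22-5p and 0 that of miR-34a-3p. The seed of miR-34a-5p is shared by 3 other names, shown because their counts are compared with those of miR-34a-5p. The count of 3 covers names with an entry in that table, and miR-34c-5p and miR-449b of the same family are named only:
miR-34b-5p: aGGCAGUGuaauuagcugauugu
miR-449a-5p: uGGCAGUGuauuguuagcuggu
miR-449c-5p: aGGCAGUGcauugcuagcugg

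Mir22 lies at chr11:75463716-75463810 on the plus strand, inside an exon of its noncoding host Mir22hg and of a transcript of the protein-coding gene Tlcd2. Mir34a lies at chr4:150068454-150068555 on the plus strand, and its 3′ end overlaps the annotated gene Gm37795. The Mir22 hairpin is shown because the ratio of its arms is one of the results, with the 5p arm and then the 3p arm in capitals:
Mir22: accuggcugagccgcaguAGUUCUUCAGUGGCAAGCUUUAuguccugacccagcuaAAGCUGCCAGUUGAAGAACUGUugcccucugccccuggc
No stretch of 18 bases from any of the 4 arms occurs in another mouse hairpin of that table (0 of 1004).

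The totals of mouse counts ran from 121003 to 3506914 in BDL libraries and from 659302 to 2684636 in sham libraries. The last 2 digits of the sample codes, 24 or 26, are shared by 3 libraries of each group, and what they stand for is not given. The first digit of a code is common to a pair of libraries of 1 group, also without a stated meaning, and a source shared by such a pair is not allowed for in tests over single libraries. BDL libraries with suffix 26 (BDL 2, 4 and 6) were shallow, with at most 666310 counts, and BDL 4 was the shallowest. Counts were scaled to counts per 1000000 (CPM) of trimmed-mean (TMM) library sizes and tested with edgeR's quasi-likelihood test over the 341 names that passed the filter, with Benjamini-Hochberg adjustment and a threshold of 0.05. Log2 fold changes are BDL minus sham with their standard error (SE). Of all names tested 146 (42.8%) passed, 84 (24.6%) as higher and 62 (18.2%) as lower in BDL. In plasma vesicles, fewer vesicles from a cell type and less RNA per vesicle cannot be told apart.

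mmu-miR-22-3p, the abundant guide arm, was present in every library and ran higher in most but not all BDL libraries, without passing the threshold. Its CPM had a lowest value of 2562, a median of 5841 and a highest value of 9824 in BDL libraries, against 2913, 3457 and 4562 in sham libraries. BDL 1, 2, 3 and 5 stood above every sham library, BDL 6 at 3612 CPM lay among them, and BDL 4 at 2562 CPM lay below them all, so the groups overlapped. Every BDL library stood above every sham library for 40 of the 341 names (11.7%), neither arm of miR-22 among them. The mean was 5994 ± 2763 CPM in BDL and 3648 ± 661 CPM in sham (SD, n = 6 each). The log2 fold change was 0.72 ± 0.30 (SE), or 1.64-fold, with an adjusted p of 0.0603 by edgeR. By mean CPM it stood at rank 17 of the 341 names in BDL and at rank 22 in sham.

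The miR-22-3p result turned on which BDL libraries entered. Within suffix 24 the CPM averaged 7780 ± 2338 in BDL libraries and 3691 ± 829 in sham libraries (SD, n = 3 each). The log2 fold change there was 1.10 ± 0.31, with an adjusted p of 0.0178 by edgeR. Within suffix 26 it averaged 4208 ± 2012 in BDL and 3604 ± 632 in sham, and the log2 fold change was 0.15 ± 0.36, with an adjusted p of 0.763 by edgeR. In these fits 31.3% of 403 names and 38.5% of 265 names passed the threshold in either direction. The difference between the suffixes, tested as an interaction, was -0.85 ± 0.50 (adjusted p = 0.34 by edgeR, where 2.35% of names passed), so no difference was shown. Without BDL 4 the log2 fold change was 0.83 (adjusted p = 0.0181) and without BDL 6 it was 0.84 (adjusted p = 0.0398), both past the threshold, while without BDL 1 it was 0.47 (adjusted p = 0.203). Whether miR-22-3p passed thus depended on single libraries. With the 2 libraries that share a first code digit summed, which leaves 3 sums per group, the log2 fold change was 1.02 (adjusted p = 0.0109 by edgeR). In BDL 77441 of the 83310 miR-22-3p counts came from suffix 24, so these sums largely repeat the suffix 24 result.

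As a plain share of mouse counts, miR-22-3p took 0.658 ± 0.421% of BDL libraries and 0.359 ± 0.0868% of sham libraries (SD, n = 6 each; two-sided exact permutation p = 0.113). Its share was 1.34% in BDL 1 (95% Wilson interval 1.33 to 1.36%) and 0.264% in BDL 4 (0.237 to 0.295%). Counting error is thus small beside the spread among BDL libraries. Intervals cover counting error only, since reads after PCR carried no molecular identifiers.

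mmu-miR-22-5p, the scarcer arm of the same hairpin, rose after ligation. Its CPM had a lowest value of 168, a median of 339 and a highest value of 449 in BDL libraries, against 121, 153 and 179 in sham libraries. BDL libraries 1, 2, 3, 5 and 6 stood above every sham library, and BDL 4, with 21 counts, lay inside the sham range. The mean was 339 ± 106 CPM in BDL and 151 ± 23.7 CPM in sham (SD, n = 6 each). The log2 fold change was 1.18 ± 0.27 (SE), or 2.26-fold, with an adjusted p of 0.00225 by edgeR, in a table where 24.6% of names were higher. By log2 fold change it stood at rank 64 of the 341 names.

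In the suffix 24 libraries miR-22-5p was up by 1.43 ± 0.27 on the log2 scale, at an adjusted p of 0.00292 by edgeR. Within suffix 26 it had 0.87 ± 0.41 (adjusted p = 0.108 by edgeR), with 303 ± 138 CPM in BDL and 160 ± 25.1 CPM in sham (SD, n = 3 each). The interaction of group and suffix was -0.45 ± 0.50 (adjusted p = 0.649 by edgeR). With no filter on low counts the log2 fold change was 1.10 and the adjusted p 0.0615. As a share, miR-22-5p made up 0.0359 ± 0.0158% of BDL libraries and 0.0147 ± 0.00252% of sham libraries (SD, n = 6 each; two-sided exact permutation p = 0.00649).

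**Figure D1:**
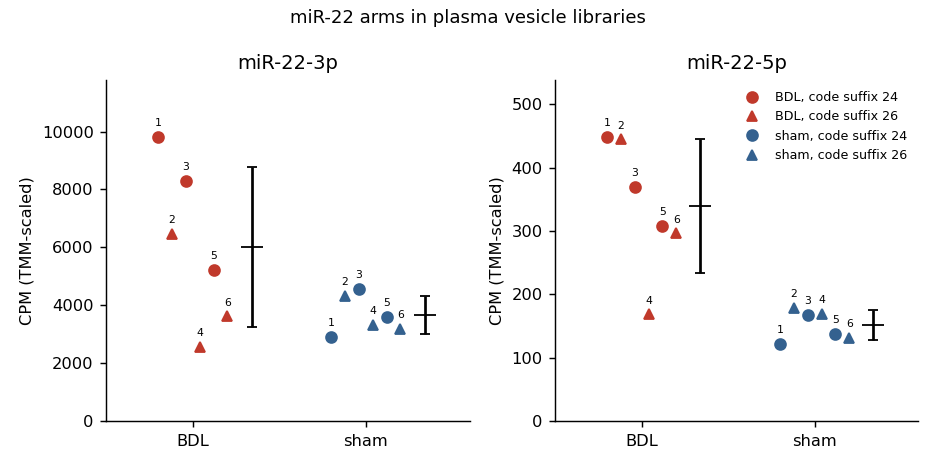
CPM of miR-22-3p and miR-22-5p in each library, BDL left and sham right, with the replicate number above each point and circles or triangles for the code suffix; black bars give the mean and SD of 6 libraries. For miR-22-5p 5 BDL libraries lie above every sham library, and for miR-22-3p 4 do.

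The arms of miR-22 did not keep the same proportion in both groups. The 5p arm made up 4.37, 6.45, 4.27, 6.16, 5.56 and 7.57% of the counts of both arms in BDL libraries 1 to 6. In sham libraries 1 to 6 it made up 4.00, 3.97, 3.54, 4.86, 3.69 and 3.98%. BDL 2, 4, 5 and 6 stood above every sham library, while BDL 1 and 3 lay just under sham 4. The mean was 5.73 ± 1.27% in BDL libraries and 4.01 ± 0.456% in sham libraries (SD, n = 6 each). The log2 ratio of miR-22-3p to miR-22-5p (with 0.5 added to each count) was 4.06 ± 0.35 in BDL and 4.59 ± 0.16 in sham. The difference was -0.52 (n = 6 each; two-sided exact permutation p = 0.013). This ratio is taken within a library and does not depend on library scaling. The 3p arm stayed in excess in every library, with 12.2 to 22.4 counts for each 5p count in BDL and 19.6 to 27.2 in sham.

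The same test was run on all 63 hairpins with both arms past the filter. Adjusted over them, the miR-22 ratio had p = 0.0341 by the exact permutation test. The ratio of 3p to 5p was lower in BDL for 8 hairpins (12.7%) and higher for 16 (25.4%), so 38.1% of hairpins passed in either direction. miR-22 stood at rank 41 of 63 by the size of its change, below the middle of the hairpins.

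Within each suffix the 5p share of every BDL library exceeded that of every sham library. In suffix 24 the 5p share was 4.73 ± 0.717% in BDL libraries and 3.74 ± 0.235% in sham libraries, and in suffix 26 it was 6.73 ± 0.747% in BDL libraries and 4.27 ± 0.509% in sham libraries (SD, n = 3 each). The exact permutation p was 0.1 in each, the smallest that 3 against 3 allows. As background, the 3p to 5p ratio was below that of every sham library in every BDL library for 15.9% of the 63 hairpins in suffix 24 and 15.9% in suffix 26. The 3 shallow BDL libraries had the 3 highest 5p shares of all 12. Sham 6, with 659302 counts against 666310 in BDL 6, had a 5p share of 3.98%. The part that depth has in the 5p share was not tested. In BDL 4 the share of 6.16% had a 95% Wilson interval of 4.06 to 9.23%. Without the shallow libraries the difference in log2 ratio was -0.25 (exact permutation p = 0.107, 3 BDL against 6 sham libraries).

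**Figure D2:**
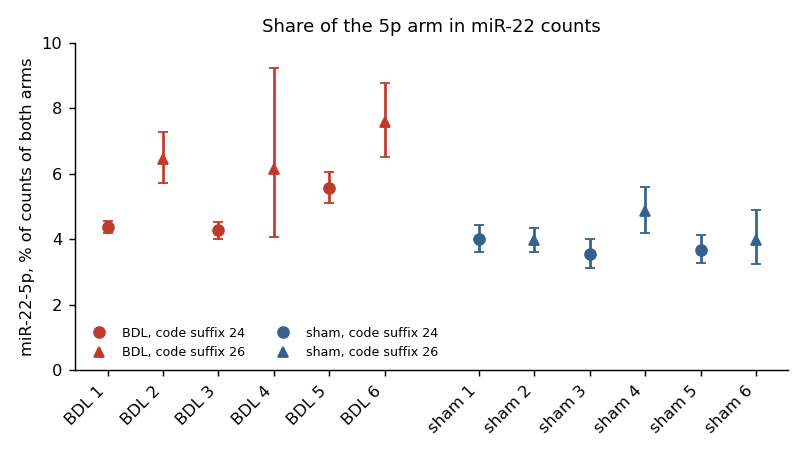
Share of miR-22-5p in the counts of both miR-22 arms, in percent, for each library, BDL left and sham right, with 95% Wilson intervals and symbols for the code suffix. BDL 2, 4, 5 and 6 lie above every sham library, and BDL 1 and 3, at 4.37 and 4.27%, lie below sham 4 at 4.86%.

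mmu-miR-34a-5p was close to the limit of detection in both groups and scarcer in BDL. It had 3 counts in BDL 1 and 0 in the other BDL libraries, against 8, 8, 1, 1, 3 and 0 counts in sham libraries 1 to 6. These are 3 counts among 8831586 mouse counts of BDL and 21 among 10478704 of sham. Sham 1 and 2, which share a first code digit, hold 8 each of the 21. The pooled rate, as plain CPM of the total mouse counts without TMM scaling, was 0.34 in BDL and 2.0 in sham, a ratio of 0.17 with a 95% exact interval of 0.0324 to 0.568 that covers counting error only. Over libraries the mean was 0.143 ± 0.349 plain CPM in BDL and 1.55 ± 1.35 plain CPM in sham (SD, n = 6 each; two-sided exact permutation p = 0.0411). The groups overlapped, since sham 6 also had 0 counts and BDL 1 lay above sham 3 and 4.

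Depth bears on this directly. At the pooled sham rate, the shallow libraries BDL 2, 4 and 6 would hold 1.25, 0.242 and 1.34 counts, so their zeros say little. Sham 6 would hold 1.32 counts, so its 0 says little too. BDL 1, 3 and 5 would hold 7.03, 4.57 and 3.28 counts, and held 3, 0 and 0. The pooled sham rate rests mostly on sham 1 and 2, with 8 each of its 21 counts, so these expected counts do too. The limit set by 0 counts, taken as 3 counts, is 1.32 plain CPM in BDL 3 and 24.8 plain CPM in BDL 4. The permutation p was above 0.05 when any of BDL 2 to 6, or sham 1, 2 or 5, was left out (0.0541 to 0.0758). On the other single omissions it was below 0.05, down to 0.00649. Leaving out any of BDL 2 to 6 removed no miR-34a-5p count, only a library. The difference rests on 3 counts in BDL and 21 in sham. Fitted by edgeR with no filter, miR-34a-5p had a log2 fold change of -2.53 ± 1.09 with an adjusted p of 0.137.

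**Figure D3:**
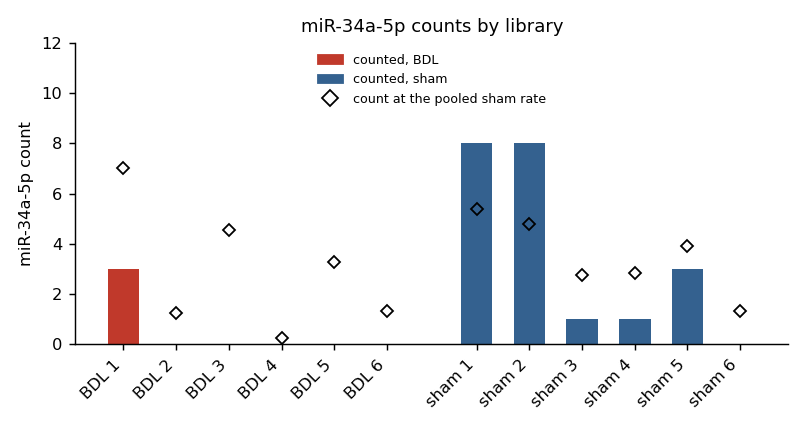
Counts of miR-34a-5p in each library as bars, BDL left and sham right, and as diamonds the count each library would hold at the pooled sham rate of 2.0 plain CPM. BDL 1, 3 and 5 hold 3, 0 and 0 counts against 7.03, 4.57 and 3.28 at that rate. Sham 1 and 2, which share a first code digit, hold 8 each of the 21 counts behind it.

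mmu-miR-34a-3p, the passenger arm, had 0 counts in all 12 libraries. Zero counts allow a rate of up to 0.34 plain CPM over the BDL libraries and 0.286 plain CPM over the sham libraries, counting error only. No arm ratio could be formed for miR-34a.

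The relatives of miR-34a-5p were also scarce, though some had more counts than it did. Of the 9 names in the miR-34 and miR-449 family list, miR-34a-5p included, which act in ciliated epithelium and in the p53 response, 0 passed the filter. miR-449a-5p, with the same seed, had 29 counts in BDL, 22 of them in BDL 5, and 3 in sham. miR-34b-5p had 3 counts in BDL and 2 in sham, miR-449c-5p had 3 and 3, and miR-34c-5p had 7 and 13. miR-34c-3p had 21 counts in BDL, all in BDL 1 and 5 (11 and 10), and 3 in sham. miR-34b-3p had 25 counts in BDL, 19 of them in BDL 1, and 35 in sham, 23 of them in sham 1. No direction is shared by the family at these counts.

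Set against each other within a library, miR-22-3p outnumbered miR-34a-5p everywhere, and both mature sequences are 22 bases long. The log2 ratio of miR-34a-5p to miR-22-3p, with 0.5 added to each count, was -12.87 ± 2.10 in BDL libraries and -11.08 ± 0.87 in sham libraries (SD, n = 6 each; two-sided exact permutation p = 0.0909). In the libraries at 0 the ratio rests on the added count. With 2 added, the difference was -0.87 (exact permutation p = 0.398) in place of -1.79. Without BDL 4 it was -2.50 (exact permutation p = 0.00649).

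Across the 12 libraries miR-22-3p moved most closely with a few other names, given as a description, since the points share depth and group. The highest Spearman rho of log2 CPM was with miR-24-2-5p at 0.95, an arm of the miR-23/27/24 cluster, then miR-194-5p at 0.92, a microRNA of liver and gut, and miR-22-5p at 0.83. With group means removed, Pearson's r was 0.88, 0.93 and 0.88 for these names. For miR-122-5p, the main microRNA of hepatocytes, rho was 0.27 and r was -0.16. miR-122-5p stood higher in every BDL library than in every sham library, and was highest in BDL 4 and 6, the BDL libraries lowest in miR-22-3p.

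miR-22-5p was closest to miR-148a-5p and miR-24-2-5p, each with rho 0.87, and to miR-24-3p with rho 0.85. These 3 names were past the threshold in BDL, with log2 fold changes of 1.74 ± 0.39, 0.91 ± 0.29 and 1.06 ± 0.25 (adjusted p = 0.00189, 0.0194 and 0.0029 by edgeR). The call for miR-24-2-5p was lost when any of 8 single libraries was left out (adjusted p up to 0.0844, without BDL 1). With no count filter the adjusted p was 0.135 for miR-24-2-5p and 0.0617 for miR-24-3p.

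**Figure D4:**
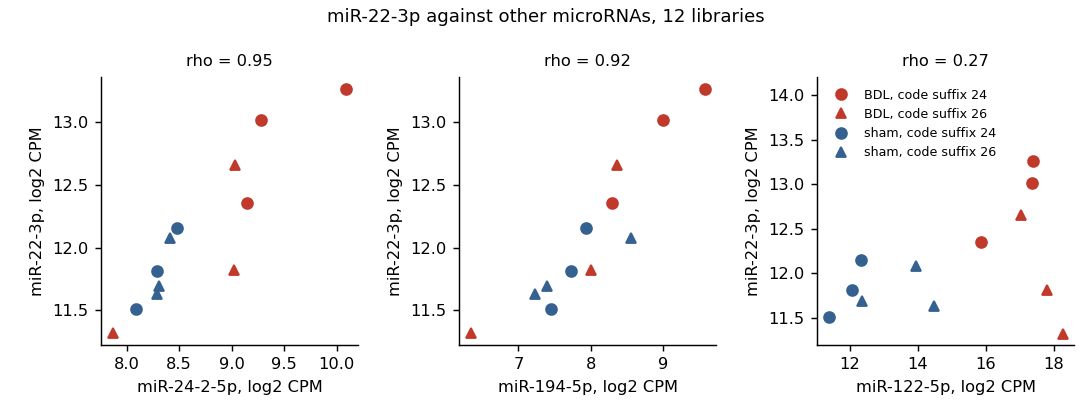
Log2 CPM of miR-22-3p against that of miR-24-2-5p, miR-194-5p and miR-122-5p, 1 point per library, BDL in red and sham in blue, with symbols for the code suffix. The points follow a line for miR-24-2-5p (rho 0.95) and miR-194-5p (rho 0.92), and for miR-122-5p (rho 0.27) the BDL libraries sit to the right of the sham libraries at both low and high miR-22-3p.

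Summed shares of markers of the cells that shed vesicles lay apart between the groups for some lists and overlapped for others. The hepatocyte list (4 of its 5 names analysed) summed to 7.17 to 33.9% of counts in BDL libraries and 0.432 to 2.51% in sham libraries, and of its names miR-122-3p was at 0 in sham. The red cell list (5 names, identical copies counted once) summed to 17.0 to 36.0% in BDL and 37.0 to 40.9% in sham. The leukocyte list (5 names) summed to 0.0502 to 0.303% in BDL and 0.279 to 0.661% in sham, and that of endothelium and platelets (2 names) to 0.0619 to 0.359% in BDL and 0.292 to 0.884% in sham. The striated muscle list (4 names) summed to 0.0661 to 0.167% in BDL and 0.114 to 0.225% in sham. The stratified epithelium marker (1 name) was below the sham range in every BDL library. The islet marker (1 name) and the neural (2 names), leukocyte, endothelium and platelet, and muscle lists overlapped theirs. By edgeR 2 of 3 tested hepatocyte names were higher. Lower were 2 of 4 red cell, 3 of 5 leukocyte, 2 of 2 endothelium and platelet and 3 of 4 muscle names. The epithelium and islet markers were lower too. Over all names 24.6% were higher and 18.2% lower. miR-486a-5p, the most abundant red cell name, missed the threshold (-0.49 ± 0.28, adjusted p = 0.162 by edgeR). The part of these markers in the miR-22 and miR-34a results was not tested.

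Other microRNAs tied to the same receptor pathway did not move 1 way. Of 12 names linked to FXR or SHP, all tested, 1 was higher, 3 were lower and 8 missed the threshold, where 24.6% of all names were higher and 18.2% lower. The median log2 fold change of the list was -0.36, against 0.03 over all 341 names. The higher name was miR-122-5p, with 180067 ± 86734 CPM in BDL and 9368 ± 8113 CPM in sham (SD, n = 6 each), which is 4.26 ± 0.55 as a log2 fold change. The lower names were miR-26a-5p (-1.83 ± 0.36), the muscle microRNA miR-206-3p (-1.94 ± 0.42) and miR-199a-3p (-1.23 ± 0.30), the last 2 named after their values were seen. miR-29a-3p, which restrains collagen genes in stellate cells, had 0.46 ± 0.38 on the log2 scale (adjusted p = 0.361 by edgeR), and miR-194-5p had 0.78 ± 0.40 (adjusted p = 0.124, or 0.0309 without BDL 4). miR-21a-5p, a microRNA of injury and fibrosis, had 3363 ± 1350 CPM in BDL and 3365 ± 969 CPM in sham (SD, n = 6 each), with no constant sign across scalings.

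Names reported to be induced by p53, the factor that drives miR-34a, split in direction. Of 14 such names 9 were tested, of which 4 were higher, 4 were lower and 1 missed the threshold, where 24.6% of all 341 names were higher and 18.2% lower. Among the most abundant, miR-192-5p rose by 3.37 ± 0.34 and miR-23a-3p by 1.35 ± 0.45 on the log2 scale (adjusted p = 3.13e-06 and 0.0215 by edgeR), the second losing the call without BDL 1 (0.78, adjusted p = 0.111) or any of sham 3, 5 and 6 (1.14 to 1.22). miR-143-3p, of smooth muscle, had -1.13 ± 0.25 and miR-215-5p -1.18 ± 0.30 (adjusted p = 0.00189 and 0.00451 by edgeR). The median log2 fold change of the tested names was 0.78, against 0.03 over all names.

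Of 13 names reported to target Sirt1, miR-22-3p and miR-34a-5p among them, 9 were tested: 1 was higher, 2 were lower and 6 missed the threshold, with a median of -0.14 on the log2 scale. Over all 341 names 24.6% were higher and 18.2% lower, and the median was 0.03. The higher name was miR-132-3p (1.65 ± 0.36), and the lower were miR-181b-5p (-1.22 ± 0.35, adjusted p = 0.0108, or 0.0633 when scaled by total counts) and miR-204-5p (-1.89 ± 0.54). miR-132-3p and miR-204-5p were named after their values were seen. The abundant names miR-30a-5p and miR-181a-5p had 0.47 ± 0.40 and -0.38 ± 0.36 (adjusted p = 0.387 and 0.426 by edgeR).

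**Figure D5:**
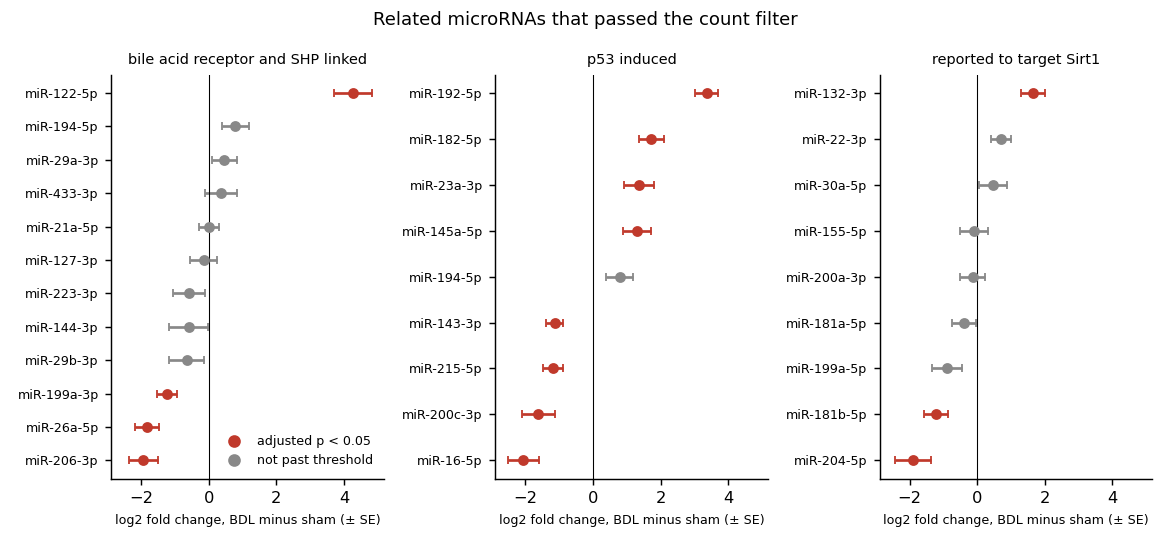
Log2 fold change, BDL minus sham, with SE for the tested names of the lists linked to FXR and SHP, induced by p53 and reported to target Sirt1; red points are past an adjusted p of 0.05 and grey points are not. Each list holds names on both sides of 0, with miR-122-5p at 4.26 and miR-192-5p at 3.37 the highest.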

How the data were processed

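Small RNA libraries from plasma vesicles of 6 BDL and 6 sham samples were compared. The authors deposited whole-number counts per microRNA name, with no normalisation that the values show. The tools were cutadapt and STAR, per the submitters' processing notes, with versions, genome build and annotation not given in the sources used here. All columns matched a sample title. The 67 names of other species, at most 0.00786% of a library, stayed out of totals and tests.

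Tests used edgeR 4.0.16 in R 4.3.3 (TMM, filter by group) on all 12 libraries, and exact permutation tests (924 splits, smallest p 0.00216) for single measures. The labels do not tie a library to an animal, so p-values measure the spread between these samples. The fit recovered changed names in simulated data, where changes were larger than those of miR-22 and every name had the same dispersion. This does not measure recovery at the size of the miR-22 changes. Ratios have 0.5 added to each count. Log2 CPM per library has a prior count of 2. Named microRNAs were the members, the highest counts of each list and the 3 closest in Spearman rho, while names singled out in small counts were chosen after their values were seen. The members and lists were chosen with earlier results of these data known. Hairpin positions and overlaps come from RefSeq (GRCm38.p6) and GENCODE M21 on GRCm38; the authors' build may differ. Alternatives were other scalings, filters, DESeq2 1.42.0, limma-voom (limma 3.58.1), a replicate block, the code suffix and libraries left out. Leaving out the 3 shallow BDL libraries was chosen after seeing the data.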

Additional observations from a re-analysis of the deposited data

Results flagged for a closer look

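For miR-34a-5p, BDL 1 stood apart from the other BDL libraries, with 0.855 plain CPM (3 counts) where the other 5 BDL libraries had 0. It was the deepest library. Of 14 groups of 6 values examined for the miR-22 and miR-34a measures this was the 1 with a library far from the others. The rule weighs the gap to the nearest value against the range. With the other 5 BDL libraries at 0, any count in BDL 1 would have been flagged, so no chance rate applies.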

How the results depend on the processing

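The measures of miR-22 and miR-34a and the count of names kept their direction and their side of the threshold under the alternatives tried, apart from those given here. For miR-22-3p the log2 fold change passed the threshold in suffix 24 alone (1.10), with libraries sharing a code digit summed (1.02) and without the 3 shallow BDL libraries (1.12), and single libraries left out gave 0.47 to 0.84, passing without BDL 4 or BDL 6. For miR-22-5p the call was lost with no count filter (1.10) and in suffix 26 alone (0.87). For the ratios and shares that follow, passing means an exact permutation p under 0.05, not adjusted over names. The shift in the log2 ratio of miR-22-3p to miR-22-5p missed the threshold in suffix 24 (-0.34), suffix 26 (-0.70) and with digits summed (-0.33), where 3 against 3 could not pass, and without the shallow libraries (-0.25). The log2 ratio of miR-34a-5p to miR-22-3p was -3.30 without the shallow libraries and passed, and single omissions gave -2.50 to -1.27, passing without BDL 4. The difference in the share of miR-22-3p passed with miR-122-5p and miR-486 left out of the total (0.772 percentage points) and without the shallow libraries (0.579), and single omissions gave 0.162 to 0.378, passing without BDL 4 (exact permutation p = 0.026) or BDL 6 (p = 0.0325). For miR-34a-5p the difference in share was -0.000146 in suffix 24, -0.000135 in suffix 26 and -0.000143 with digits summed. In these, too, 3 against 3 could not pass. It missed the threshold without the shallow libraries (-0.000126), and single omissions gave -0.000172 to -0.000105, missing it in 8 of 12. The cause of these changes was not tested. miR-34a-5p and miR-34a-3p were below the filter, so the other fits and the suffix interaction gave no value for them.

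Signs turned for 6 other names, none past the threshold over all 12 libraries. miR-21a-5p (0.00) had -0.13 with DESeq2 size factors and with DESeq2, -0.0635 with no filter, -0.062 with at least 10 counts in 6 libraries, -0.0612 with the suffix as a covariate, -0.0344 with the replicate block, -0.41 in suffix 26 and -0.24 to 0.12 with single omissions. In suffix 26 miR-29a-3p (0.46 over all libraries) had -0.34, miR-194-5p (0.78) had -0.10 and miR-30a-5p (0.47) had -0.65, the last with -0.25 to 0.59 on single omissions. miR-181a-5p had 0.0826 in suffix 24, 0.0167 with digits summed and 0.18 without the shallow libraries, and miR-200a-3p had 0.20, 0.0912 and 0.24.

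The replicate block (sample numbers 1 to 6) gave 0.59 for miR-22-3p and 1.14 for miR-22-5p, and 133 names past the threshold in place of 146. No label pairs the samples by number. Deviations of log2 CPM from the group means had Pearson's r of -0.0886 to 0.311 between same-numbered libraries, with 2 of 6 pairs over 0.1. These values cannot settle whether the libraries are paired. In both groups odd numbers carry suffix 24 and even numbers suffix 26, so the block also takes up the suffix. The count of names lay between 102 and 176 under all alternatives, split 73 higher and 71 lower with DESeq2 size factors, 83 and 46 by total counts. Those scalings moved the median of all names by -0.14 and 0.09. Depth limits miR-34a, and a lone shallow library such as BDL 4 could not show it.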
